A study of Homo sapiens with 6 samples.

Results

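The genes described here are the cyclins, the cyclin-dependent kinases (CDKs) and the CDK inhibitors of U-2 OS, a human osteosarcoma cell line. Members were taken by gene symbol, as CCN and a single letter with or without a number, or as CDK, CDKL or CDKN followed by a number. Of 58 matching symbols, 9 were left out by the same rule, among them the mitotic cyclins A2, B1 and B2, CDK1, the CDK5RAP genes and antisense RNAs, which left 49 of 14884 genes tested. The set holds 21 cyclins, 22 CDK or CDKL kinases, the inhibitor genes CDKN3 and CDKN2A, and 4 genes of CDK-binding or related proteins that carry the prefix (CDK2AP1, CDK2AP2, CDKN2AIP and CDKN2AIPNL).

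Expression was read on 6 whole-transcript arrays, with 3 arrays per group. In the S22A-progerin group a retroviral vector expressed progerin in which alanine takes the place of a serine that is phosphorylated when the nuclear lamina comes apart, and in the wt-progerin group the same kind of vector expressed progerin without that change. Progerin is the truncated lamin A of Hutchinson-Gilford progeria, and it stays farnesylated. Cells of both groups were held in 5 µg/ml puromycin for 3 days and harvested 4 days after infection. All arrays come from 1 cell line, both groups carry progerin, and cells without it were not analysed here. The labels call the replicates independent, and the p-values of single genes rest on the spread among the arrays of each group, moderated over all genes.

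Cyclins are regulatory subunits that bind CDKs and switch on their kinase activity. D cyclins with CDK4 or CDK6, and then E cyclins with CDK2, phosphorylate the retinoblastoma proteins and let E2F factors transcribe the genes of S phase. Another branch of the family does not drive the cycle but phosphorylates RNA polymerase II, the Mediator complex or splicing factors. The CDKN genes encode proteins that hold CDKs in check.

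All levels are log2 values from RMA, a method that subtracts background, aligns the arrays and gives 1 value per probe set. All differences are log2 differences, with wt-progerin taken from S22A-progerin, so a positive one means higher in S22A-progerin. Genes were tested together with limma, which draws the variance of each gene toward a prior from all genes. The SEs, intervals and p-values it gives rest on that moderated variance. A gene is called higher or lower at an adjusted p under 0.05. The array medians over all probe sets were 6.05 to 6.09 in S22A-progerin and 6.04 in each wt-progerin array. On the second principal component, which held 11.1% of the variance, S22A-progerin replicate 3 stood at -15.5 and the other arrays of that group at 6.51 and 9.29. That array was also the farthest from its group mean in 24 of the 49 members. LMNA, which encodes lamin A and progerin, was at 8.31, 8.26 and 8.29 in S22A-progerin and at 8.17, 8.15 and 8.10 in wt-progerin (difference 0.15, adjusted p = 0.0796) and did not pass. Of 10 osteoblast markers listed, 4 were measured. RUNX2 averaged 8.03 in S22A-progerin and 8.77 in wt-progerin and fell, BMP4 fell by 0.64, and SPP1 rose, at 8.36 in S22A-progerin and 7.18 in wt-progerin. IBSP, which did not pass, was at 3.88 in S22A-progerin and 3.86 in wt-progerin. The 3 measured leukocyte markers, CD14, LYZ and TYROBP, had summed log2 levels of 17.1 to 18.0 in S22A-progerin and 16.7 to 17.3 in wt-progerin, and limma called 0 of them, also at an unadjusted p under 0.05. Of 4 measured epithelial markers, KRT18 was called higher, by 0.51, and EPCAM (-0.28), KRT5 (-0.35) and KRT8 (0.056) did not pass. EPCAM and KRT5 were lower on every S22A-progerin array than on any wt-progerin array, with unadjusted limma p-values of 0.0475 and 0.0234.

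S22A-progerin cells had lower transcript levels of CDKN3, a phosphatase that acts on CDKs, of cyclin F, of CDK2 and of CDK19, and higher levels of cyclin D3 and both G-type cyclins. CDKN3 was 1.75-fold lower and CCNF 1.72-fold lower, while the largest rise, that of CCND3, was 1.34-fold. Of the 49 members, 15 (30.6%) were called, 6 higher and 9 lower, beside 25.4% of all genes tested, of which 10.8% were called higher and 14.6% lower. Among the 7442 genes with signal above the median, 11 of the 39 members there were called (28.2%), beside 37.4% of all of them. With a trended, robust variance prior, 23 members were called, 9 higher and 14 lower (46.9%), beside 30.2% of all genes. The median difference over the members was 0.0045, beside -0.0037 over all genes. With the arrays centred on their medians the split was 5 higher and 12 lower, as CDKL4 was lost and CCNE2, CDK4 and CDK12 were gained among the falls. At an adjusted p under 0.01, 10 members were called (20.4%), beside 14% of all genes, and with a fold of at least 1.5 it was 4 (8.16%), beside 5.8%. In 30 members (61.2%) no array of one group crossed into the other, 12 of them higher and 18 lower, beside 42.1% of all genes, with 18.5% higher and 23.6% lower. The members' median level stood at percentile 73.6 of all genes. The shares at 0.01, at a fold of 1.5 and without overlap were not set beside genes of like level.

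**Figure D1:**
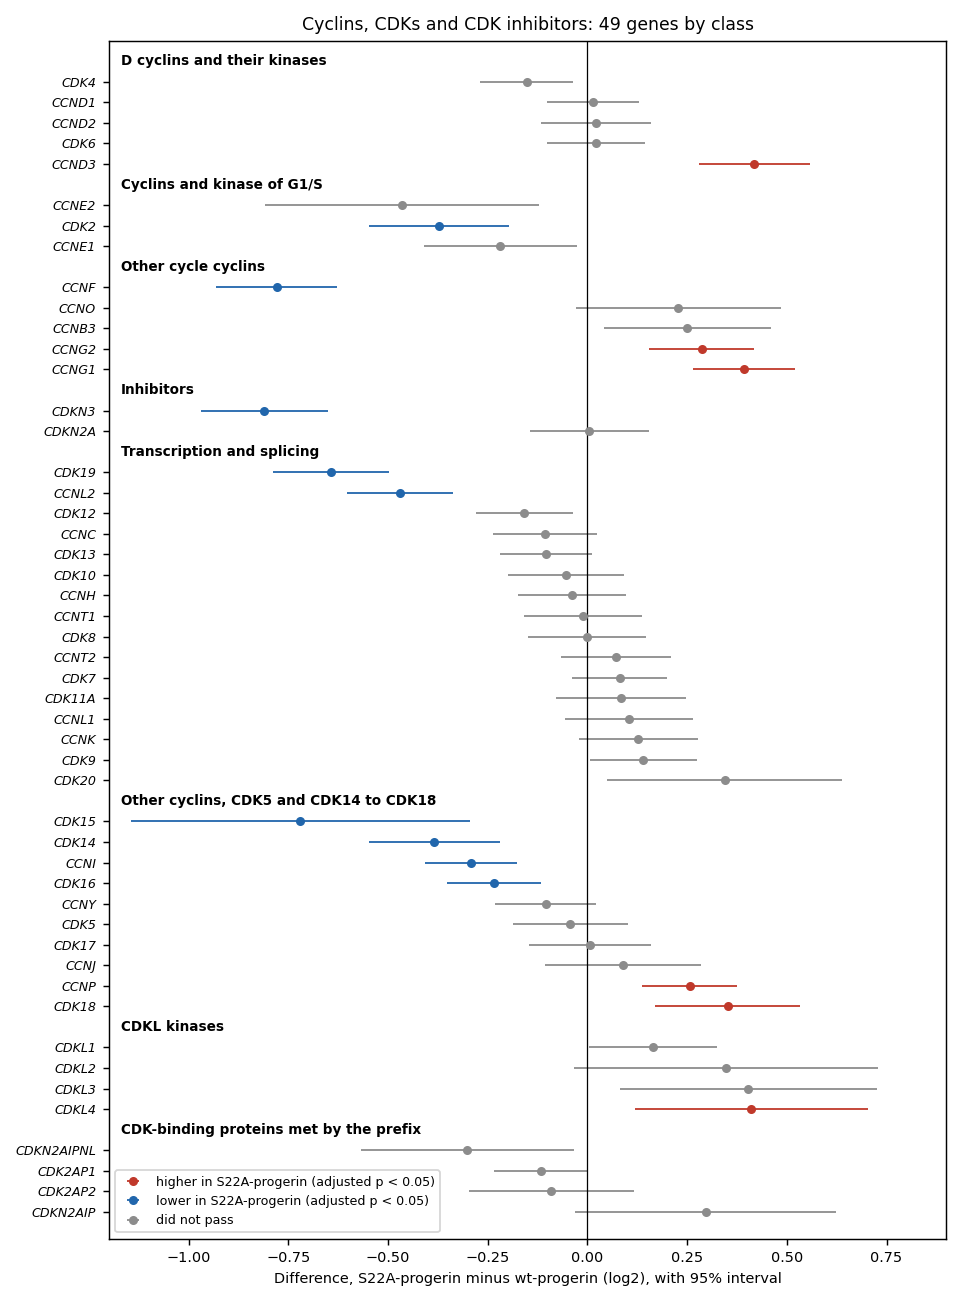
Log2 difference between S22A-progerin and wt-progerin for each of the 49 members, with its 95% interval from limma (n = 3 arrays per group), grouped by role and ordered within each role. Red points are called higher, blue points called lower and grey points did not pass; the calls run from -0.81 in CDKN3 to 0.42 in CCND3, and 7 of the 16 genes of transcription and splicing lie within 0.1 of 0.

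The D cyclins and their kinases open the cycle, and 4 of the 5 did not pass, which left 1 called (20%, beside 25.4% of all genes). CCND3, which encodes cyclin D3, was at 7.25, 7.22 and 7.34 on the S22A-progerin arrays and at 6.91, 6.81 and 6.84 on the wt-progerin arrays. Each S22A-progerin value lay above each wt-progerin value, and CCND3 rose by 0.42 (SE 0.059, 95% interval 0.28 to 0.56, adjusted p = 0.00248). The groups overlapped in both other D cyclins. CCND1 averaged 10.43 ± 0.024 in S22A-progerin and 10.41 ± 0.017 in wt-progerin (SD, n = 3), a difference of 0.013 with an interval of -0.10 to 0.13. CCND2 averaged 10.05 ± 0.074 in S22A-progerin and 10.03 ± 0.034 in wt-progerin, a difference of 0.021 with an interval of -0.12 to 0.16. A second CCND2 probe set was at 7.58 in S22A-progerin and 7.44 in wt-progerin, and did not pass either (adjusted p = 0.160 among all probe sets).

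Neither kinase that D cyclins bind passed. CDK6 averaged 10.86 ± 0.045 in S22A-progerin and 10.84 ± 0.023 in wt-progerin, with a difference of 0.022 and an interval of -0.10 to 0.14. CDK4 averaged 11.66 ± 0.015 in S22A-progerin and 11.81 ± 0.029 in wt-progerin, and its groups did not overlap. Its difference of -0.15 (interval -0.27 to -0.036) had an adjusted p of 0.0635 and did not pass.

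Of 4 G1/S genes listed, 3 were measured, and CCNA1 was not analysed here. CDK2 passed and the E cyclins did not, although all 3 genes lay below wt-progerin on every S22A-progerin array. CDK2, the kinase that carries cells into S phase, was at 10.76, 10.55 and 10.78 in S22A-progerin and at 11.10, 11.09 and 11.02 in wt-progerin. It fell by 0.37 (SE 0.075, interval -0.55 to -0.20, adjusted p = 0.0105), 1.29-fold. CCNE1, which encodes cyclin E1, was at 10.70, 10.75 and 10.47 in S22A-progerin and at 10.87, 10.83 and 10.87 in wt-progerin. The gap between the groups was narrow except in S22A-progerin replicate 3, and the difference was -0.22 (interval -0.41 to -0.026, adjusted p = 0.0963), or -0.13 without that array (adjusted p = 0.131). CCNE2, which encodes cyclin E2, was at 8.03, 7.73 and 7.43 in S22A-progerin and at 8.19, 8.10 and 8.31 in wt-progerin. Its SD was 0.30 in S22A-progerin and 0.11 in wt-progerin, and the difference of -0.47 (SE 0.15, interval -0.81 to -0.12) missed the threshold at adjusted p = 0.0564. Without S22A-progerin replicate 1, the CCNE2 array nearest to wt-progerin, the difference was -0.62 and passed (adjusted p = 0.0141). Without S22A-progerin replicate 3 it was -0.32 (adjusted p = 0.0938), and with any other array left out it did not pass either (adjusted p = 0.0857 to 0.155).

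Among the remaining cyclins linked to the cycle, 3 of 5 were called (60%, beside 25.4% of all genes), in a class likewise small. CCNF, which encodes cyclin F, the substrate-binding subunit of an SCF ubiquitin ligase active late in the cycle, was at 9.19, 9.09 and 9.28 in S22A-progerin and at 9.95, 10.00 and 9.94 in wt-progerin. The lowest wt-progerin array lay well above the highest S22A-progerin array, and CCNF fell by 0.78 (SE 0.064, adjusted p = 0.000248).
The G-type cyclins moved the other way. CCNG1, cyclin G1, a p53 target whose product recruits protein phosphatase 2A, was at 11.48, 11.52 and 11.52 in S22A-progerin and at 11.08, 11.08 and 11.18 in wt-progerin. It rose by 0.39 (SE 0.054, adjusted p = 0.00220), 1.31-fold. CCNG2, cyclin G2, which is induced when cells leave the cycle, was at 7.71, 7.59 and 7.66 in S22A-progerin and at 7.34, 7.38 and 7.37 in wt-progerin. It rose by 0.29 (SE 0.056, adjusted p = 0.00928). CCNB3, a B-type cyclin of meiosis, and CCNO, a cyclin of multiciliated cells, differed by 0.25 and 0.23 and did not pass (adjusted p = 0.0843 and 0.181). Without S22A-progerin replicate 1 these were 0.16 and 0.11.

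Of 8 inhibitor genes listed, 2 were measured, and CDKN1A, CDKN1B, CDKN1C, CDKN2B, CDKN2C and CDKN2D were not analysed here. CDKN3 is counted with the inhibitors by its name: it encodes a phosphatase that removes an activating phosphate from CDK2 and its mitotic relative, and its transcript is known to be high in dividing cells. It was at 10.09, 10.03 and 10.21 in S22A-progerin and at 10.93, 10.85 and 10.97 in wt-progerin. No array of one group came near the other, and CDKN3 fell by 0.81 (SE 0.067, interval -0.97 to -0.65, adjusted p = 0.000251). CDKN2A, which encodes the CDK4 and CDK6 inhibitor INK4A and the p53 activator ARF, did not pass. Its values were 5.51, 5.46 and 5.53 in S22A-progerin and 5.39, 5.57 and 5.53 in wt-progerin, which overlap, with a difference of 0.0045 and an interval of -0.15 to 0.15. The mean level of CDKN2A stood at percentile 19.3 of all genes tested. Without a detection call, a low level cannot be told from absence, so the narrow interval does not show an expressed inhibitor to be unchanged.

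Cyclin F and CDKN3 transcripts vary with cell cycle stage, and genes of dividing cells moved with them. All 12 measured of 16 proliferation markers were called lower, beside 14.6% of all genes. Among genes with signal above the median, 37.4% were called in either direction. The markers had a median of -0.67 and a range from -0.93 in NUSAP1 to -0.34 in AURKA. That they fall was known of these arrays from earlier results. In refits the count was 11 or 12. It was 11 when the arrays were quantile normalized again, with the replicate block and in 4 of the 6 fits with 1 array left out. Their summed log2 levels were 123.2 to 124.0 in S22A-progerin and 131.0 to 131.5 in wt-progerin. MKI67, the Ki-67 gene, averaged 10.80 ± 0.072 in S22A-progerin and 11.54 ± 0.060 in wt-progerin. In bulk RNA, fewer cells in a cycle stage and less transcript per cell cannot be told apart. The part of cell cycle stage in the members' differences was not tested.

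**Figure D2:**
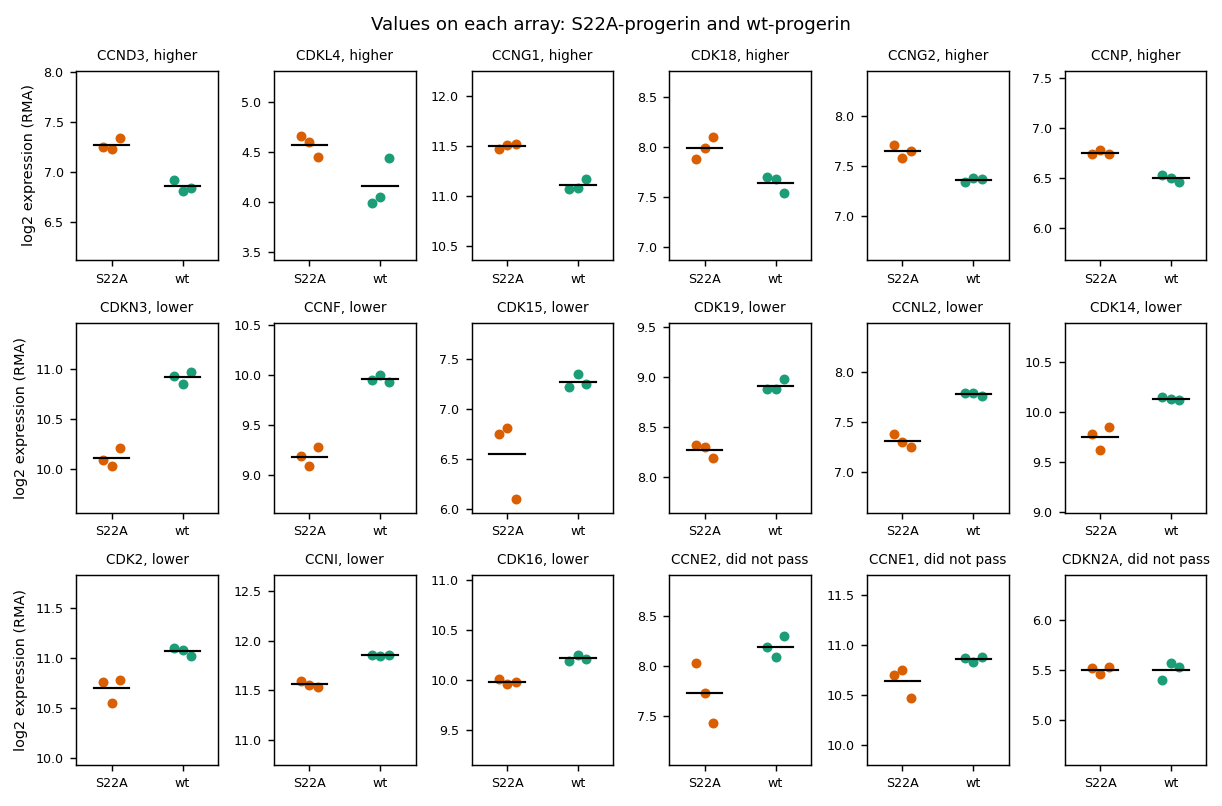
Log2 expression of the 15 called members and of CCNE2, CCNE1 and CDKN2A on each array; points are arrays, with S22A-progerin (orange) left of wt-progerin (green), and bars are group means. Every panel spans the same log2 range, so that gaps can be compared; in CDK15, 1 S22A-progerin array at 6.10 lies far below the others of its group, and in CDKL4 the groups all but touch, at 4.46 and 4.44.

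The start regions of a few called members are shown because genes of dividing cells are known to share short promoter elements, among them the CHR, bound by the DREAM and MuvB complexes, and the CCAAT box, bound by NF-Y. Each is 250 bases before to 50 bases after the gene's start in RefSeq, GRCh38.p14, written along the gene's strand. They are those of CDKN3 and CDK19, falls picked because they hold a CHR match, and of CCNG1, a rise without one. Being picked, they do not show how the elements are spread over the members. CCNF, a fall that also holds a CHR match, and CCNP, a rise that holds one, are not shown. The region of CCND3, the largest rise, holds no CHR or CCAAT match and is not shown either. Capitals mark matches on either strand to TTTGAA for the CHR and to the letters CCAAT for the CCAAT box. For E2F the first form searched was TTTCGCG, the second form was TTTGGCG and the third form was TTTCCCG. CDKN3 is at chr14:54396757-54397056 on the plus strand, CDK19 at chr6:110815806-110816105 on the minus strand and CCNG1 at chr5:163437321-163437620 on the plus strand.
CDKN3: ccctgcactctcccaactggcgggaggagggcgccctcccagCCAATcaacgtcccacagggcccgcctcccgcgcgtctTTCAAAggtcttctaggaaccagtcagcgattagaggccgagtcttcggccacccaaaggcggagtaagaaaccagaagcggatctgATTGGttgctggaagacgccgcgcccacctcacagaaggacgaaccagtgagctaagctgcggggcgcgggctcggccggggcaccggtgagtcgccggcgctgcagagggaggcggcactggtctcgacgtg
CDK19: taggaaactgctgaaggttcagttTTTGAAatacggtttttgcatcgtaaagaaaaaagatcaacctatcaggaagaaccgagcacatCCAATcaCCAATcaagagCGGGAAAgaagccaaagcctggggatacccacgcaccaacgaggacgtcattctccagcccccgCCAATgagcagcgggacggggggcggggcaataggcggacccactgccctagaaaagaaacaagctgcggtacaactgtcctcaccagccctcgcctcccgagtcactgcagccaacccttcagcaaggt
CCNG1: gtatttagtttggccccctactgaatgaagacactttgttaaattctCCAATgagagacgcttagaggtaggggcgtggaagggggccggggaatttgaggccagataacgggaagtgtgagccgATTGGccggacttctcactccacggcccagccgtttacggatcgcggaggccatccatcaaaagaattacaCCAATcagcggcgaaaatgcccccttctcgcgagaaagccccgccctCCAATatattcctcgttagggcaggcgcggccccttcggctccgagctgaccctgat

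In CDKN3 the CHR match begins at -170, on the opposite strand, between CCAAT matches at -208 and -83. The CDK19 window holds a CHR match at -226, an E2F match at -144 and 3 CCAAT matches. The CCNG1 window holds 4 CCAAT matches and neither of the other motifs. RefSeq windows were matched to 45 of the 49 members, 8 of them called lower, 6 higher and 31 not passed. A CCAAT match lay in 6 of the 8 windows of lower members, 3 of the 6 of higher members and 7 of the 31 others. Over the 45 member windows together the share was 35.6%. Over all 27305 RefSeq windows, which include genes not tested here, it was 35.7%. CHR matches lay in 3 windows of lower, 1 of higher and 2 of other members. That is 13.3% of the member windows, beside 15.4% of all windows. E2F matches lay in 1 window of a lower member and in 5 windows of members that did not pass. The share was 13.3% of the member windows, beside 7.28% of all windows. These are matches of letters, given without a test.

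Of the 16 measured members that act on transcription and splicing, 14 did not pass, and the 2 that did were both lower. The share called was 12.5%, beside 25.4% of all genes. CDK19, a Mediator kinase that pairs with cyclin C, was at 8.32, 8.30 and 8.19 in S22A-progerin and at 8.88, 8.88 and 8.98 in wt-progerin. The groups were well apart, and CDK19 fell by 0.64 (SE 0.061, adjusted p = 0.000438), 1.56-fold. CCNL2, cyclin L2, a partner of CDK11 in splicing, was at 7.38, 7.29 and 7.24 in S22A-progerin and at 7.79, 7.79 and 7.75 in wt-progerin, and fell by 0.47 (SE 0.056, adjusted p = 0.00116).

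The other genes of this class did not pass. CDK8, the other Mediator kinase, averaged 9.65 in S22A-progerin and 9.65 in wt-progerin (difference -0.00066, interval -0.15 to 0.15), and CCNC, cyclin C, differed by -0.11 (adjusted p = 0.214). CDK7 and its cyclin CCNH, which phosphorylate other CDKs and the polymerase tail, differed by 0.081 and -0.039. The elongation kinase CDK9 differed by 0.14 (adjusted p = 0.124), and its cyclins CCNT1 and CCNT2 by -0.011 and 0.071. CDK12 and CDK13, kinases of long and DNA repair transcripts, differed by -0.16 and -0.10, and their cyclin CCNK by 0.13, or by 0.079 without S22A-progerin replicate 3. The adjusted p of CDK12 was 0.0644. CDK11A and CCNL1 differed by 0.084 and 0.10, CCNL1 by 0.049 without wt-progerin replicate 1, and signal of CDK11A may include its near-identical copy CDK11B. CDK10 differed by -0.053. CDK20, a kinase linked to cilia and placed with these genes, differed by 0.34 with a wide interval of 0.050 to 0.64 (adjusted p = 0.0887), and by 0.22 without wt-progerin replicate 1.

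In the class of other cyclins, CDK5 and CDK14 to CDK18, 6 of 10 were called, 4 lower and 2 higher. That is 60%, beside 25.4% of all genes, in a small class that was chosen with earlier results known. CDK15 had the largest difference there and the least certain one. It was at 6.75, 6.81 and 6.10 in S22A-progerin and at 7.22, 7.35 and 7.25 in wt-progerin, and fell by 0.72 (SE 0.18, interval -1.15 to -0.30, adjusted p = 0.0252). S22A-progerin replicate 3 lay far below the other arrays of its group, and without it the difference was -0.49 and still passed. With any 1 wt-progerin array left out CDK15 did not pass (adjusted p up to 0.0755). CDK14, like CDK15 a kinase of the PFTAIRE type and a partner of cyclin Y in Wnt signalling, was at 9.78, 9.63 and 9.86 in S22A-progerin and at 10.16, 10.14 and 10.12 in wt-progerin. It fell by 0.38 (SE 0.070, adjusted p = 0.00701). CCNI, cyclin I, was at 11.59, 11.56 and 11.53 in S22A-progerin and at 11.85, 11.84 and 11.86 in wt-progerin, and fell by 0.29 (SE 0.049, adjusted p = 0.00513).

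The PCTAIRE kinases CDK16, CDK17 and CDK18 are close relatives, of which 1 fell, 1 rose and 1 did not pass. CDK16, which cyclin Y activates, was at 10.02, 9.97 and 9.98 in S22A-progerin and at 10.20, 10.25 and 10.22 in wt-progerin, and fell by 0.23 (SE 0.050, adjusted p = 0.0139). CDK18 was at 7.88, 7.99 and 8.10 in S22A-progerin and at 7.70, 7.68 and 7.54 in wt-progerin, and rose by 0.35 (SE 0.077, adjusted p = 0.0150). CDK17 averaged 8.48 in S22A-progerin and 8.47 in wt-progerin, with a difference of 0.0061 and an interval of -0.15 to 0.16. Without wt-progerin replicate 3, CDK16 and CDK18 did not pass (adjusted p = 0.0530 and 0.0549), nor did CDK16 without wt-progerin replicate 2. CCNP, cyclin P, was at 6.74, 6.77 and 6.74 in S22A-progerin and at 6.53, 6.50 and 6.46 in wt-progerin, and rose by 0.26 (SE 0.050, adjusted p = 0.00974). CCNY, cyclin Y itself, differed by -0.10, CCNJ by 0.090 and CDK5, a kinase of neurons, by -0.043, and none of these passed.

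The CDKL kinases, which resemble both CDKs and MAP kinases, had positive differences in all 4 measured genes. Of these 1 passed (25%, beside 25.4% of all genes). CDKL4 was at 4.66, 4.60 and 4.46 in S22A-progerin and at 4.00, 4.05 and 4.44 in wt-progerin. The lowest S22A-progerin and the highest wt-progerin array differed by little, and CDKL4 rose by 0.41 with an adjusted p of 0.0494, just under the threshold. It kept its call in 3 of 12 refits and lost it, for example, with the arrays quantile normalized again. CDKL3 differed by 0.40 (adjusted p = 0.0730), CDKL2 by 0.35 (adjusted p = 0.171) and CDKL1 by 0.16 (adjusted p = 0.128). CDKL2 differed by 0.18 without wt-progerin replicate 1, and CDKL3 by 0.57 without wt-progerin replicate 3, where it passed. The groups overlapped in CDKL2 and CDKL3. Mean levels of CDKL4, CDKL3 and CDKL2 stood at percentiles 7.48, 19.5 and 26.8 of all genes tested, and that of CDKL1 at 54.9. No detection call was used, so values as low as those of CDKL4, CDKL3 or CDKL2 cannot be told from absence.
Of the CDK-binding and related proteins, limma called 0 of 4, with 1 lower at an unadjusted p under 0.05. CDKN2AIPNL differed by -0.30 (adjusted p = 0.0982), CDKN2AIP by 0.30 (adjusted p = 0.174), CDK2AP1 by -0.12 and CDK2AP2 by -0.090. Without S22A-progerin replicate 3, CDKN2AIPNL was at -0.17, while CDKN2AIP was at 0.44 and passed (adjusted p = 0.0254).

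Close relatives were set side by side in 13 pairs, chosen by family after the values had been seen, by taking the log2 difference of the second gene from that of the first on the same arrays. The widest gap was between CDK19 and CDK8, with a value of -0.64. The change of CDK18 exceeded that of CDK16 by 0.58, that of CCNL2 less that of CCNL1 was -0.58, and that of CCND3 exceeded those of CCND1 and CCND2 by 0.41 and 0.40. CCNE2 and CCNE1, at -0.25, and CCNG1 and CCNG2, at 0.11, did not separate in every array. In 8 of the 13 pairs the exact permutation test over arrays, two-sided, gave p = 0.1, the smallest that 3 against 3 arrays allow, with an adjusted p of 0.163 over the pairs. This test cannot pass 0.05 with 3 against 3 arrays, and no other test of the pairs was run.

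**Figure D3:**
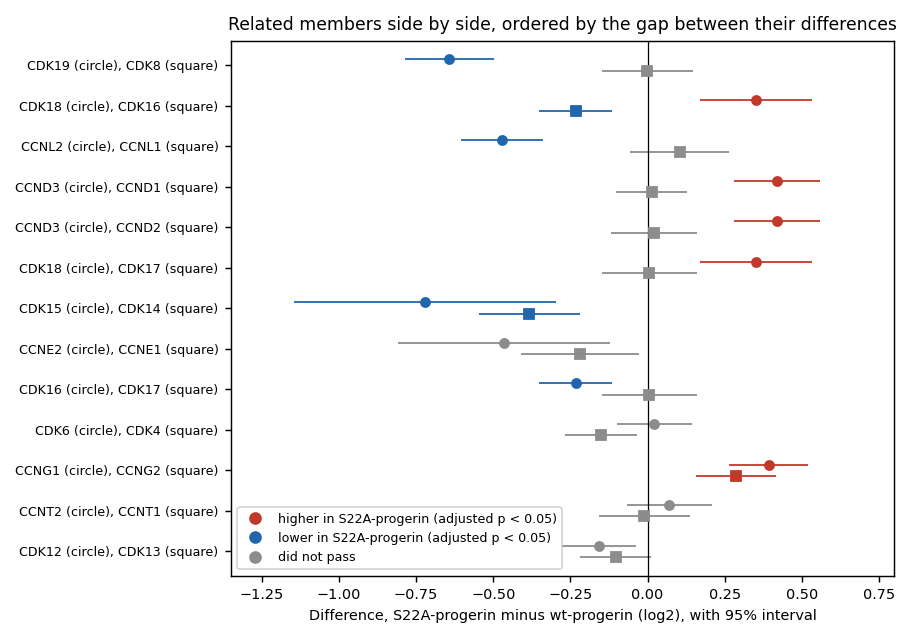
Log2 differences between S22A-progerin and wt-progerin for related members, with 95% intervals, 1 row for each of 13 pairs, ordered by the gap between the 2 genes. Circle and square stand for the first and second gene named; CDK19 lies at -0.64 beside CDK8 close to 0, CDK18 and CDK16 lie on opposite sides of 0, and CCNG1 and CCNG2 lie together on the right.

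Of 63 listed regulators that act on cyclins and CDKs without being members, 48 were measured, of which 25 were called lower and 3 higher. The share called was 58.3%, beside 25.4% of all genes and 37.4% of the genes with signal above the median. The regulators' median level stood at percentile 82.2 of all genes, and their median difference was -0.23. The list was drawn up with earlier results of these arrays known, and it includes genes of dividing cells. The 5 largest falls were in CDC25C, a phosphatase that switches on mitotic CDK (-1.05), FBXO5, an inhibitor of the anaphase-promoting complex (-0.87), CDC7, the kinase that fires replication origins (-0.86), the transcription factor E2F1 (-0.67) and RBL1, the pocket protein p107 (-0.66). CDC25C averaged 7.10 ± 0.057 in S22A-progerin and 8.15 ± 0.051 in wt-progerin (SD, n = 3). E2F1 averaged 9.20 ± 0.12 in S22A-progerin and 9.86 ± 0.051 in wt-progerin. All 3 pocket protein genes fell, with RBL2 (p130) at -0.49 and RB1 at -0.25 beside RBL1.

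The 3 regulators called higher were SERTAD1, a CDK4-binding protein (0.48, adjusted p = 0.000725), SPDYA, a Speedy protein that activates CDK2 without a cyclin (0.41, adjusted p = 0.0309), and LIN37 (0.29, adjusted p = 0.00804). LIN37 is a subunit of the MuvB complex, and LIN52 (-0.39), LIN9 (-0.30) and LIN54 (-0.24), the other subunits on the list, fell. WEE1, the kinase that holds CDKs inactive, fell by 0.33, and the small CDK-binding proteins CKS2 and CKS1B fell by 0.38 and 0.29. Regulators of the transcription kinases were mixed: MED12L (-0.50) and MED13 (-0.19) of the Mediator kinase module fell, while MED12 (-0.21), MED13L (0.025), HEXIM1 (-0.087), HEXIM2 (0.17) and MEPCE (-0.14) did not pass.

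**Figure D4:**
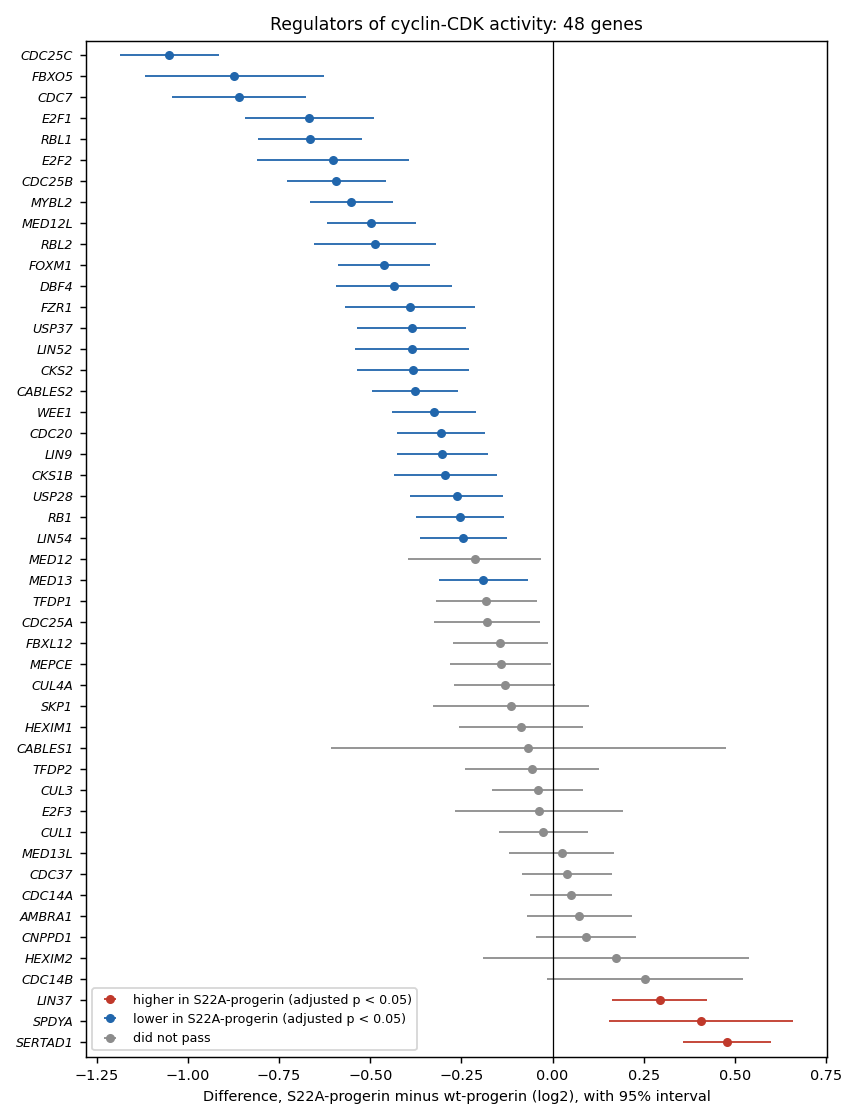
Log2 difference between S22A-progerin and wt-progerin for each of 48 measured regulators of cyclins and CDKs, with its 95% interval, from the largest fall at the top to the largest rise at the bottom. Blue genes are called lower (25), red genes called higher (3) and grey genes did not pass; CDC25C stands at -1.05 and SERTAD1 at 0.48.

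The calls were followed through 13 refits under other processing choices or with 1 array left out. Of the 15 called members, 11 kept their call in every refit that tested them, and the exceptions were CDK15, CDK16, CDK18 and CDKL4. The direction of each of the 15 was the same in all of these refits. A further 11 members passed in at least 1 refit and not in the reported fit, CCNE2 in 4 of 13 and CCNE1 in 2 of 13.

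**Figure D5:**
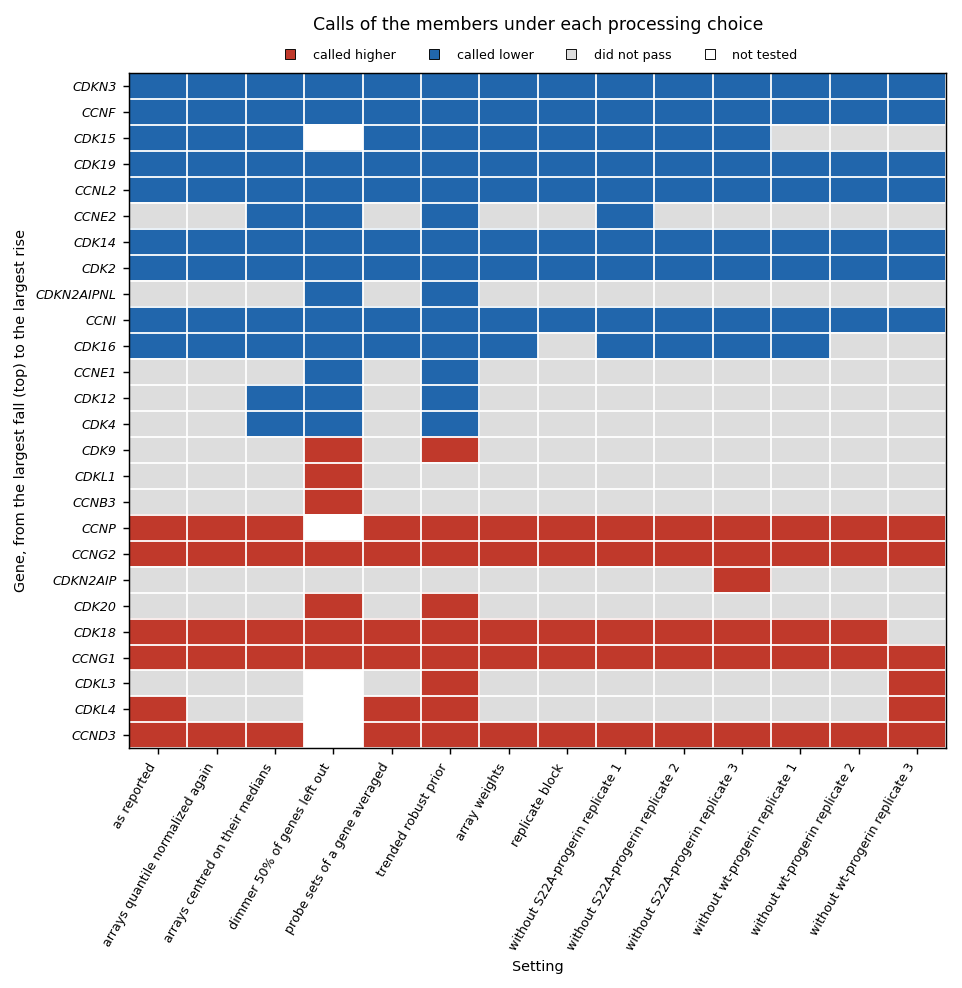
Calls of the 26 members that passed under any of 14 settings, which are the reported fit and 13 refits; each row is a gene, each column a setting, red is called higher, blue called lower, grey did not pass and white was not tested. CDKN3, CCNF, CDK19, CCNL2, CDK14, CDK2 and CCNI stay blue and CCNG1 and CCNG2 stay red across all columns, while CCNE2 turns blue in 4.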

How the data were processed

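The deposited log2 values are RMA output, and the submitters' processing notes name Affymetrix Expression Console; its version, the genome build and further settings are not given in the sources used. Each of 6 arrays is a column matched to its sample through the label, and groups came from the titles. Of 53617 probe sets, 16098 carried 1 gene symbol in the platform annotation. These gave 14884 genes, 779 of them with more than 1 probe set, for which the one of highest mean level stood for the gene.

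All genes were fitted by lmFit and eBayes of limma 3.58.1 under R 4.3.3 (2 groups, no covariate, two-sided, no filter), with Benjamini-Hochberg adjustment over all of them. The code was tested on simulated arrays. Members, classes, lists and the naming rule were chosen with earlier results of these data known. Values on every array are given for CCNE1, CCNE2, the inhibitors and the called members. Replicate numbers did not pair the arrays: same-numbered arrays' deviations correlated at -0.055 to -0.0056. Promoter windows are RefSeq's, 1 of which is not reported here, and gene biotypes come from a RefSeq table of GRCh38.p14. The number of arrays limits the precision.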

Additional observations from a re-analysis of the deposited data

How the results depend on the processing

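Differences are S22A-progerin minus wt-progerin. With 1 array left out, 12 to 15 members were called (24.5% to 30.6%), beside 17.8% to 24.2% of all genes. The reported counts were 6 higher and 9 lower. With a trended, robust variance prior 9 members were called higher and 14 lower (46.9%), beside 30.2% of all genes. Requiring a fold of at least 1.5 left 4 lower and 0 higher members by limma (0 also at an unadjusted p under 0.05), 7 lower and 0 higher regulators (0 likewise), and 7 lower proliferation markers. With the replicate block, 5 members were called higher and 8 lower, as CDK16 and CDKL4 no longer passed; 0 of 3 S22A-progerin arrays correlated best with the wt-progerin array of its number. With the dimmer 50% of genes left out, 10 members were not tested and 20 of 39 passed (51.3%), beside 50.2% of the genes kept.

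The sign turned in 7 members, all with small differences that did not pass. With arrays centred on their medians these were CCND1 (-0.021), CCND2 (-0.013), CDK17 (-0.028), CDK6 (-0.012) and CDKN2A (-0.029). With arrays quantile normalized again they were CCNT1 (0.022), CDK8 (0.034) and CDKN2A (-0.030), and with array weights CCNT1 (0.0072), CDK17 (-0.014) and CDK8 (0.021). With 1 array left out, these members ranged from -0.021 to 0.045 (CCND2), -0.039 to 0.040 (CCNT1), -0.052 to 0.035 (CDK17), -0.0028 to 0.041 (CDK6), -0.027 to 0.048 (CDK8) and -0.047 to 0.040 (CDKN2A), while CCND1 kept its sign. The cause was not tested.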
